A study of Mus musculus with 6 samples.

Results

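Chaperones were examined as a set of 38 genes picked by symbol: the Hsp70, Hsp110 and Hsp90 proteins, their J-domain, Bag and other co-chaperones, small heat shock proteins, the mitochondrial and cytosolic chaperonins, and the heat shock factors Hsf1 and Hsf2. All 38 were among the 23361 genes of the expression table, were above 0 in all 6 libraries, and passed the level needed for testing (a mean of at least 1 FPKM, met by 12533 genes). FPKM is a fragment count scaled to transcript length and to the library total. The libraries came from whole hippocampus of Tet1Δe4-/- mice, homozygous for an allele whose name denotes the loss of exon 4 and called Tet1-deficient below, and of Tet1+/+ (wild-type) mice, with 3 libraries each. Tet1 encodes an enzyme that oxidises 5-methylcytosine in DNA. Mice of both genotypes received an electroconvulsive shock through ear clamps (18 mA, 100 Hz, 0.2 ms pulses for 1.15 seconds), and tissue was taken 1.5 to 2 hours later. Libraries of unshocked mice were not analysed here, so a level after the shock is not a measure of induction. The sources used here do not state age, strain, sex or how the deletion was made. Library titles carry unexplained letters, one of them f for wild-type replicate 1 and m for the others.

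Chaperones bind unfolded segments of other proteins and help them fold, keep them soluble, or pass them on for degradation. Hsp70 proteins do so in cycles of ATP hydrolysis that J-domain proteins start and nucleotide exchange factors (Hsp110 and Bag proteins) end, Hsp90 takes over clients such as kinases and steroid receptors, and chaperonins enclose a client in a barrel. When unfolded protein accumulates, the transcription factor Hsf1 binds heat shock elements, inverted repeats of GAA and TTC units, and raises a subset of these genes, among them Hspa1a, Hspa1b, Dnajb1, Hsph1 and Hspb1. Other members, such as Hspa8 and Hsp90ab1, are made at high levels in unstressed cells, and neurons are known for a high threshold for the Hsf1 response.

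The elements themselves are shown because they mark which of the members with a promoter window match the full Hsf1 motif near an annotated start. RefSeq promoter windows on GRCm38.p6 (250 bases before to 50 after an annotated start) were matched for 31 of the 38 genes. The other 7 had no window and were not searched. A 3-unit element, GAANNTTCNNGAA or its reverse complement TTCNNGAANNTTC, lay in the windows of 5 of the 31 genes (16.1%), against 179 of 27025 genes with a window (0.662%). The 5 genes were Hspd1, Hspe1, Chordc1, Hsph1 and Dnajb6. All of these matches lay inside an annotated exon. That of Hsph1 began 15 or 36 bases after an annotated start, and that of Chordc1 began at −4 and ran past the start. Hspd1 and Hspe1 point away from each other, and the same element lies in the windows of both. A 2-unit element, GAANNTTC or TTCNNGAA, which every 3-unit element contains, was in the windows of 15 of the 31 (48.4%) and of 4587 of all 27025 genes (17.0%). A match of letters is a description and not a binding site. In the stretches listed here, written 5′ to 3′ on the gene's strand, capitals mark the element, with overlapping ones joined. The first 4 are the 3-unit elements, and the last 3 are the 2-unit elements of Hspa1a, Hspa1b and Hspb1, which are classical heat shock genes without a 3-unit match. Hspb1 has a pair of them, beginning at −117 and −97 from its start, and the one nearer the start is in capitals.
Hspe1 and Hspd1 (chr1:55088053-55088082, plus strand): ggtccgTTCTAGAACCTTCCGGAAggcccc
Chordc1 (chr9:18292260-18292288, plus strand): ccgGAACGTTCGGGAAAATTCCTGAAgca
Hsph1 (chr5:149636280-149636308, minus strand): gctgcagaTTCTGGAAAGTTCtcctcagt
Dnajb6 (chr5:29735844-29735872, plus strand): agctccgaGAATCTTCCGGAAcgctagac
Hspa1a (chr17:34972228-34972285, minus strand): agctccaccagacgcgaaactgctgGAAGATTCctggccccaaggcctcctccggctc
Hspa1b (chr17:34959310-34959367, minus strand): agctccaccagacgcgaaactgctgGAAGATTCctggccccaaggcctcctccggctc
Hspb1 (chr5:135887797-135887854, plus strand): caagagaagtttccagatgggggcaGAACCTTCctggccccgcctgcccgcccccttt
The Hspa1a and Hspa1b stretches are identical, and their whole 300-base windows are 98.7% identical, with 4 edits between them. Their transcripts are alike too: 58.8% of the 50-base words of Hspa1a also occur in Hspa1b, and 62.3% of those of Hspa1b occur in Hspa1a. The sources used here do not say how reads that fit both genes were assigned, so the 2 values are uncertain as separate measurements.

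Replicate 1 of wild-type and replicate 1 of Tet1-deficient hippocampus stood apart from the other 4 on the first principal component, which held 53.3% of the variance, while Pearson correlations across genes between libraries stayed between 0.965 and 0.990. Choroid plexus, a tissue next to the hippocampus, contributed unequally: its transcript Ttr was at 294 FPKM in wild-type replicate 3 and 187 FPKM in Tet1-deficient replicate 2, and at 3.44 to 17.7 FPKM in the other 4. Read depth is unknown, since the table holds no counts. The 7 listed markers of hippocampal pyramidal and granule cells, such as Prox1 and Wfs1, were present in every library at 4.50 to 71.7 FPKM. In the order replicate 1, 2 and 3, which is used throughout, Tet1 measured 0.977, 0.718 and 0.897 FPKM in the wild-type libraries and 0.740, 0.685 and 0.638 FPKM in the Tet1-deficient ones, and a gene-level value does not check the loss of 1 exon. The design text counts 3 mice per genotype without tying a library to an animal, so the p-values measure the spread between these libraries.

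No chaperone gene passed the test for a difference between the genotypes. In the limma model over all 12533 genes, 0 of the 38 passed an adjusted p of 0.05 in either direction, where 4 genes passed in all (0.0319%; 0.0239% higher and 0.00798% lower in Tet1-deficient hippocampus), and the adjusted p of every member was 1.00. At an unadjusted p under 0.05 there was 1 of 38 (2.63%), Hspb8, against 1.36% of all tested genes, or 0.918% counting only genes that were lower as Hspb8 was. The 2 genotypes did not overlap for 3 of 38 (7.89%), against 4.13% of all tested genes. These were Hspa9 and Hsp90aa1, with all 3 Tet1-deficient libraries above (1.91% of all tested genes), and Hspb8, with all 3 below (2.21%). Values are log2(FPKM + 1), and every difference is Tet1-deficient minus wild-type. The difference was above 0 for 28 and below 0 for 10 of the 38, with a median of 0.05, while 52.9% of all tested genes were above 0 with a median of 0.0055. Between 22 and 30 of the members were above 0 under the other settings and left-out libraries, among the 34 to 38 members tested there. For 28 members the whole 95% interval lay between −0.5 and 0.5. On this scale that is within a 1.41-fold change in either direction, and the scale shrinks the differences of members at a few FPKM. The data thus bound the difference of most members without showing that there was none.

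**Figure D1:**
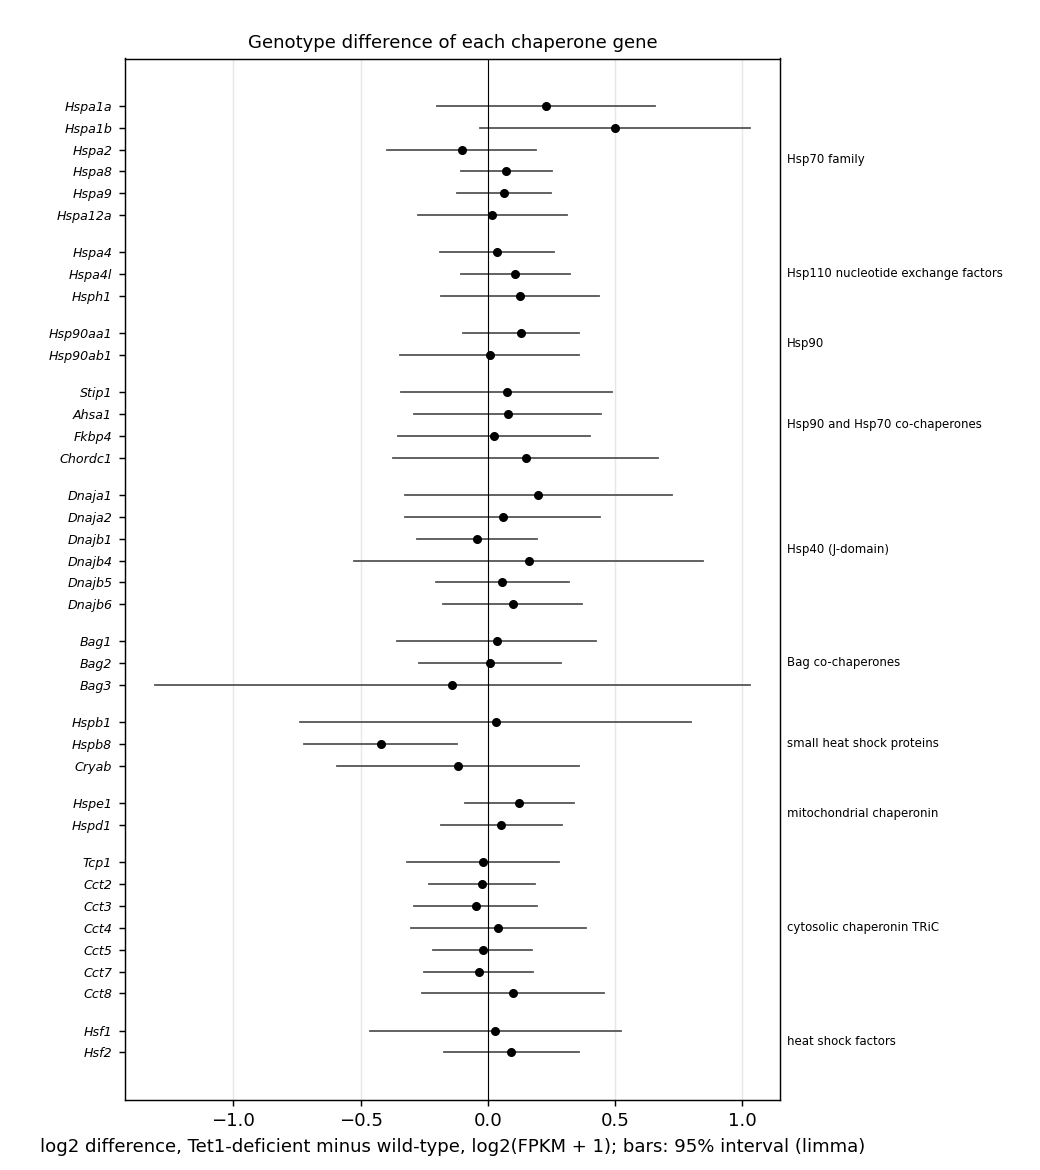
Genotype difference of each of the 38 genes (points) with its 95% interval (bars) from limma, on the log2(FPKM + 1) scale; positive values are higher in Tet1-deficient hippocampus. The interval of Hspb8 is the only one that leaves out 0, and its adjusted p was 1.00; that of Bag3 is the widest, from −1.31 to 1.03.

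Mean levels of the members ran from 2.25 FPKM for Hspb1 to 1342 FPKM for Hspa8. Hspa8, the constitutive cytosolic Hsp70, Hsp90ab1, the constitutive Hsp90, and Hsp90aa1, its inducible relative, together made up 59.6% of the summed FPKM of the 38 genes. Hspa8 and Hsp90ab1 averaged above 1000 FPKM over the 6 libraries, 32 members lay between 5 and 1000 FPKM, and Hspa1a, Bag2, Hspb1 and Hspb8 lay under 5 FPKM. The 38 genes held 1.28% to 1.34% of the FPKM sum in every library.

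**Figure D2:**
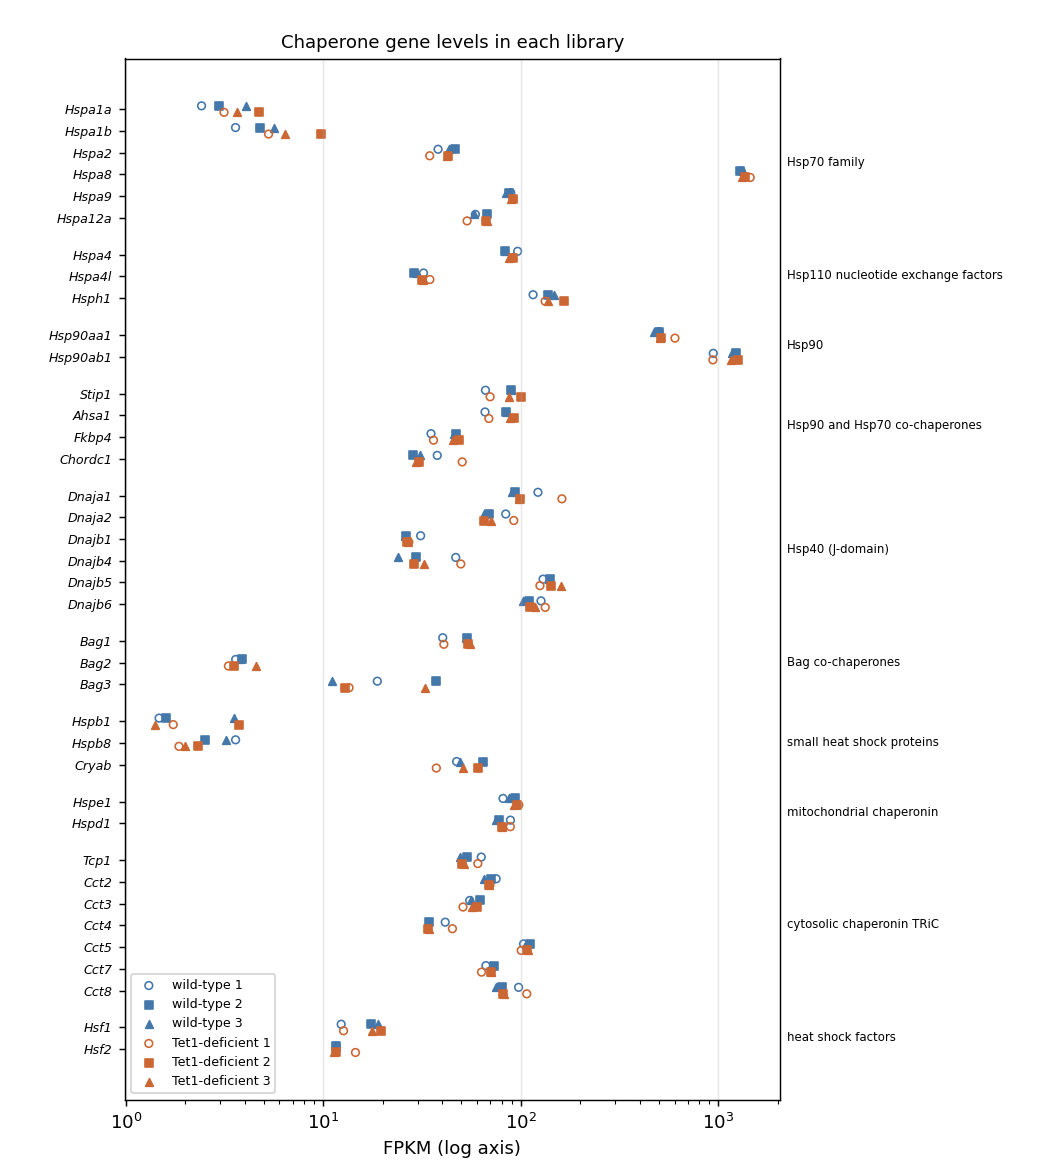
FPKM of each of the 38 genes in each library (log axis), grouped by role; blue is wild-type, orange Tet1-deficient, and open circles are replicate 1 of each genotype. The 3 highest genes are Hspa8, Hsp90ab1 and Hsp90aa1, and the open circles sit apart from the filled symbols for many genes, to the right for some and to the left for others.

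Among the Hsp70 proteins, the inducible pair was scarce beside the constitutive one. Hspa8 measured 1302, 1285 and 1334 FPKM in the wild-type libraries and 1450, 1357 and 1321 FPKM in the Tet1-deficient ones. The groups overlapped, and the log2 difference was 0.07 (95% interval −0.11 to 0.25). In Hspa8, 74.8% of the 50-base words of the transcript recur in other genes, 70.0% in the predicted gene Gm15459, so its level too depends on how shared reads were treated. Hspa1a, an inducible form, measured 2.42, 2.97 and 4.06 FPKM in the wild-type libraries and 3.14, 4.73 and 3.67 FPKM in the Tet1-deficient ones. Its twin Hspa1b measured 3.60, 4.76 and 5.66 FPKM and 5.28, 9.68 and 6.43 FPKM. For both genes the ranges overlapped, wild-type replicate 1 was the lowest library and Tet1-deficient replicate 2 the highest. Hspa1b had the largest difference of any member in either direction, 0.50 (SE 0.22, 95% interval −0.03 to 1.03), and its unadjusted p in limma was 0.0606 with an adjusted p of 1.00. Without Tet1-deficient replicate 2 the difference was 0.28. Tet1-deficient replicate 2 also carried the second highest choroid plexus signal, and wild-type replicate 3, with the highest, had the highest wild-type level of both genes. The part of that tissue in the result was not tested. For Hspa1a the difference was 0.23 (95% interval −0.20 to 0.66).

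Ratios within a library put the same data another way. Hspa1a and Hspa1b summed to between 0.462% and 1.06% of the Hspa8 level. The ratio of Hspa1b to Hspa1a was 1.49, 1.60 and 1.40 in the wild-type libraries and 1.68, 2.05 and 1.75 in the Tet1-deficient ones, so the ranges did not overlap. This ratio was singled out after its values were seen, rests on 2 genes that share reads, and with 3 libraries against 3 could not give an exact two-sided permutation p below 0.1.

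The other Hsp70 relatives varied little. Hspa9, the Hsp70 of the mitochondrial matrix, measured 88.9, 86.8 and 84.5 FPKM in the wild-type libraries and 91.4, 91.3 and 89.3 FPKM in the Tet1-deficient ones. These ranges did not overlap, but the step from 88.9 to 89.3 FPKM is small beside the spread within either genotype, and the difference was 0.06 (95% interval −0.12 to 0.25). Hspa2, a form best known from the testis, measured 38.1, 46.6 and 43.5 FPKM and 34.6, 42.6 and 42.2 FPKM, a difference of −0.10. Hspa12a, a distant relative, measured 57.8 to 67.5 FPKM in wild-type and 53.5 to 67.3 FPKM in Tet1-deficient hippocampus (difference 0.02).

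The 3 Hsp110 proteins, which release ADP from Hsp70, all had small positive differences. Hsph1 measured 115, 138 and 147 FPKM in the wild-type libraries and 133, 166 and 138 FPKM in the Tet1-deficient ones, with overlap and a difference of 0.13 (95% interval −0.19 to 0.44). Hspa4l measured 32.2, 28.6 and 30.0 FPKM and 34.6, 31.5 and 31.9 FPKM, a difference of 0.11 (95% interval −0.11 to 0.32). Only wild-type replicate 1 reached into the Tet1-deficient range for Hspa4l. Hspa4 measured 82.9 to 96.4 FPKM and 86.9 to 90.9 FPKM (difference 0.04).

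Hsp90 was the other abundant system. Hsp90aa1 measured 501, 503 and 475 FPKM in the wild-type libraries and 603, 515 and 505 FPKM in the Tet1-deficient ones. The ranges lay next to each other without overlap, and the difference was 0.13 (SE 0.10, 95% interval −0.10 to 0.36). Tet1-deficient replicate 1 decided its size, since without that library the difference was 0.05. Of the 50-base words of Hsp90aa1, 58.5% recur in other genes. Hsp90ab1 measured 943, 1226 and 1171 FPKM and 939, 1263 and 1160 FPKM, with a difference of 0.0077. Here both replicate 1 libraries were low and the other 4 close together, whatever the genotype. The ratio of Hsp90ab1 to Hsp90aa1 was accordingly 1.88 and 1.56 in the replicate 1 libraries of wild-type and Tet1-deficient hippocampus and 2.30 to 2.47 in the others.

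The Hsp90 co-chaperones Stip1, Ahsa1 and Fkbp4 followed the pattern of Hsp90ab1. Stip1, which holds Hsp70 and Hsp90 together while a client is handed over, measured 66.2, 89.0 and 89.2 FPKM in the wild-type libraries and 69.9, 101 and 87.5 FPKM in the Tet1-deficient ones. Ahsa1, which stimulates the Hsp90 ATPase, measured 65.9, 84.6 and 85.3 FPKM and 68.9, 92.6 and 88.0 FPKM. Fkbp4, an immunophilin found in steroid receptor complexes, measured 35.1, 47.3 and 45.8 FPKM and 36.1, 48.6 and 45.6 FPKM. In all 3 genes both replicate 1 libraries lay below the other 4, and the genotype differences were 0.07, 0.08 and 0.02. Chordc1, an Hsp90-binding protein whose window holds the longest run of elements shown above, did the opposite. It measured 37.8, 28.6 and 30.8 FPKM in the wild-type libraries and 50.5, 30.5 and 29.6 FPKM in the Tet1-deficient ones, with both replicate 1 libraries above the rest. Its difference of 0.15 turned to −0.09 without Tet1-deficient replicate 1, which leaves a replicate 1 library in wild-type only. Between the 2 replicate 1 libraries the difference of Chordc1 was 0.41, and among the other 4 it was 0.02.

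J-domain proteins, which bring clients to Hsp70 and trigger its ATPase, mostly stood higher in the replicate 1 libraries. Dnaja1 measured 122, 93.9 and 90.1 FPKM in the wild-type libraries and 162, 98.5 and 98.4 FPKM in the Tet1-deficient ones. Within each kind of library the Tet1-deficient values were above: by 0.40 (log2) between the 2 replicate 1 libraries and by 0.10 among the other 4. The difference over all 6 was 0.20 (95% interval −0.33 to 0.72), and it was −0.04 without Tet1-deficient replicate 1. Dnajb1, the main J-domain partner of Hspa1a under heat stress, measured 31.1, 26.3 and 25.9 FPKM and 27.1, 26.5 and 26.9 FPKM, a difference of −0.04 (95% interval −0.28 to 0.19). Dnajb4 ranged from 23.8 to 46.8 FPKM in wild-type and from 28.7 to 49.7 FPKM in Tet1-deficient hippocampus, with the replicate 1 libraries on top in both. Dnajb5 measured 130, 140 and 139 FPKM and 125, 143 and 159 FPKM, with low rather than high replicate 1 libraries (difference 0.06). Dnaja2 (64.7 to 92.1 FPKM over all libraries) and Dnajb6 (103 to 133 FPKM) had differences of 0.06 and 0.10.

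Of the Bag proteins, which free Hsp70 of its nucleotide and connect it to degradation pathways, Bag3 varied most. Bag3, an Hsf1 target that joins Hspb8 in the autophagy of aggregated proteins, measured 18.8, 37.1 and 11.0 FPKM in the wild-type libraries and 13.5, 12.8 and 32.8 FPKM in the Tet1-deficient ones. In each genotype 1 library was high, wild-type replicate 2 and Tet1-deficient replicate 3, and the highest library had 3.37 times the lowest, the widest span of any member. The genotype difference was −0.14 with a 95% interval of −1.31 to 1.03, an interval that holds changes of more than 2-fold in either direction. The 2 libraries high in Bag3 were those lowest in choroid plexus markers, whose summed FPKM was 7.37 and 9.30 there and 16.6 to 303 in the others. Their part in the result was not tested. Bag1 measured 40.2, 53.4 and 52.9 FPKM and 40.8, 54.1 and 55.6 FPKM, again with low replicate 1 libraries (difference 0.04), and Bag2 stayed at 3.31 to 4.57 FPKM (difference 0.0087).

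Small heat shock proteins, which hold unfolded clients without using ATP, gave the only member with an unadjusted p under 0.05. Hspb8, the partner of Bag3, measured 3.60, 2.53 and 3.23 FPKM in the wild-type libraries and 1.86, 2.33 and 2.01 FPKM in the Tet1-deficient ones. All 3 Tet1-deficient values lay below all wild-type values, with means of 3.12 ± 0.544 and 2.06 ± 0.239 FPKM (SD, n = 3). The log2 difference was −0.42 (SE 0.13, 95% interval −0.72 to −0.12), and limma gave an unadjusted p of 0.0131 and an adjusted p of 1.00. It stayed between −0.53 and −0.34 when any 1 library was left out, and was −0.56 with 0.1 FPKM added in place of 1. Markers of pericytes and smooth muscle, cells of the vessel wall, moved with it in part: the summed FPKM of the 6 markers was 36.6, 20.9 and 34.2 in the wild-type libraries and 23.4, 27.9 and 17.2 in the Tet1-deficient ones, with none of the 6 at 0 in any library. Rgs5 weighed most in this sum, with 25.9 FPKM in wild-type replicate 1 and 17.1 FPKM in replicate 3. Acta2, Tagln, Myh11, Pdgfrb and Kcnj8 were higher in wild-type replicate 3 than in replicate 1, unlike Hspb8. Meningeal fibroblast markers also moved with Hspb8 in part. The summed FPKM of 6 markers was 95.4, 40.2 and 91.2 in wild-type, the same order as Hspb8, and 46.9, 56.3 and 39.1 in Tet1-deficient libraries. That wild-type order did not hold for most of the markers. Dcn and Lum were higher in wild-type replicate 1 than in replicate 3, as Hspb8 was, while Col1a1, Col1a2, Col3a1 and Igf2 were lower. The part of either cell type in the Hspb8 difference was not tested. In bulk tissue, fewer cells of a type and less RNA per cell cannot be told apart.

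Hspb1, a classical heat shock protein that in brain is known from vessels and reactive astrocytes, had 1 high library in each genotype. It measured 1.47, 1.60 and 3.54 FPKM in the wild-type libraries and 1.74, 3.73 and 1.40 FPKM in the Tet1-deficient ones. The high libraries, wild-type replicate 3 and Tet1-deficient replicate 2, were those with the most Ttr. They also had the most endothelial signal, with summed FPKM of the 6 endothelial markers at 49.6 and 49.0 there and at 23.1 to 33.7 in the other 4, and no marker of either list at 0. The part of these cells in the Hspb1 level was not tested. The genotype difference of Hspb1 was 0.03 (95% interval −0.74 to 0.80), and 51.6% of its 50-base words recur in other genes. Cryab, a small heat shock protein abundant in oligodendrocytes, measured 47.3, 64.2 and 49.2 FPKM and 37.4, 60.9 and 51.0 FPKM, with overlap and a difference of −0.12. The summed FPKM of 6 oligodendrocyte markers was 3209, 3449 and 3302 in the wild-type libraries and 2950, 3396 and 3849 in the Tet1-deficient ones. Both were lowest in Tet1-deficient replicate 1, but the markers were highest in Tet1-deficient replicate 3 and Cryab in wild-type replicate 2, and the part of these cells in the Cryab level was not tested. Cryab shares 19.0% of its 50-base words with Hspb2, which lies on the opposite strand and overlaps it.

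**Figure D3:**
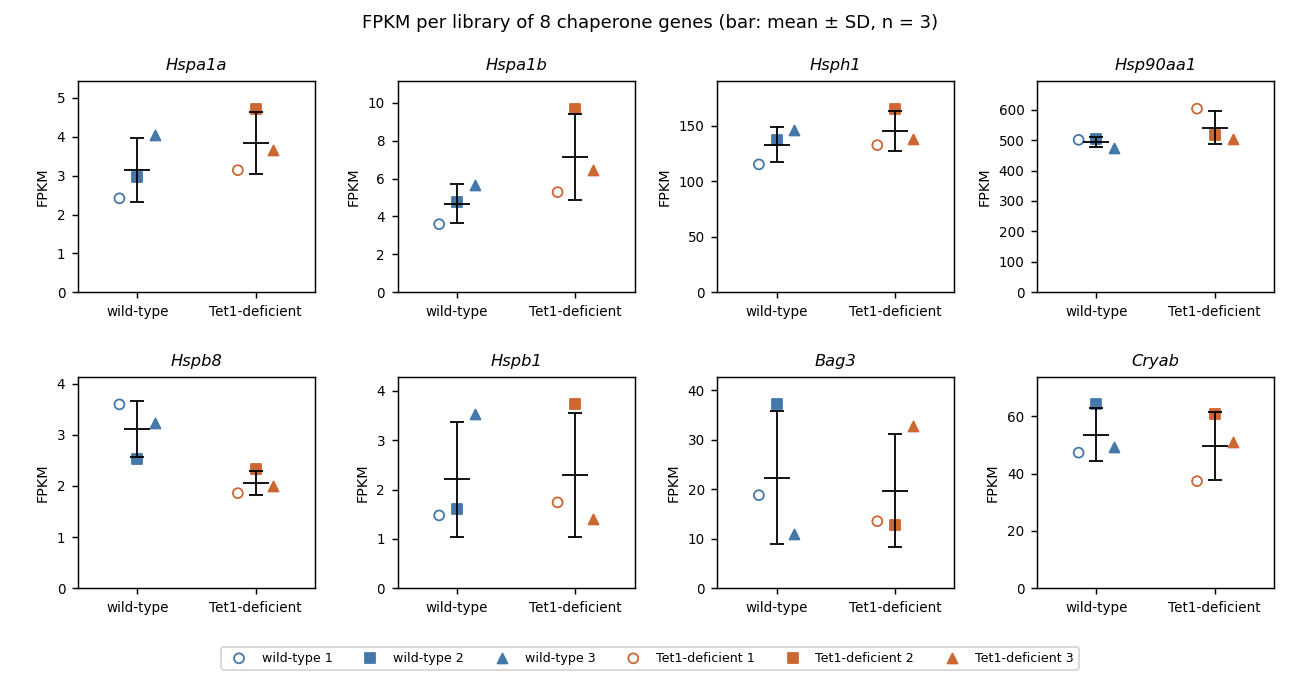
FPKM in each library for 8 members, with mean ± SD of the 3 libraries per genotype; axes start at 0. Hspb8 is the one of these members whose Tet1-deficient values (1.86 to 2.33 FPKM) all lie below the wild-type ones (2.53 to 3.60 FPKM), while Bag3 and Hspb1 each have high libraries in both genotypes.

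The chaperonins had small differences. Hspd1 and Hspe1 encode the barrel and the lid of the mitochondrial chaperonin and share the promoter shown above. Hspd1 measured 88.6, 77.4 and 74.9 FPKM in the wild-type libraries and 88.5, 80.8 and 80.5 FPKM in the Tet1-deficient ones, a difference of 0.05. Hspe1 measured 81.3, 93.9 and 86.9 FPKM and 97.8, 95.4 and 92.3 FPKM, a difference of 0.12 (95% interval −0.09 to 0.34), with only wild-type replicate 2 inside the Tet1-deficient range. Their ratio, Hspe1 to Hspd1, ran from 0.917 to 1.21 over the 6 libraries. Of the 50-base words of each, 44.8% recur in other genes.

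The cytosolic chaperonin TRiC, a ring of 8 different subunits that folds actin and tubulin, was represented by 7 members. Tcp1 measured 63.1, 53.2 and 49.3 FPKM in the wild-type libraries and 60.6, 50.6 and 51.9 FPKM in the Tet1-deficient ones, a difference of −0.02 (95% interval −0.32 to 0.28). Over the 7 genes 2 were above 0 and 5 below, and the differences ran from −0.05 for Cct3 to 0.10 for Cct8, with a median of −0.02. The subunits enter the ring in equal number, but their FPKM did not match each other: mean FPKM over the 6 libraries was 37.1 for Cct4 and 106 for Cct5. With Cct6a added, the highest subunit had 2.81 to 3.49 times the FPKM of the lowest in each library. Cct2, Cct3 and Cct7 averaged 69.7, 56.8 and 69.1 FPKM, and Cct8 87.2 FPKM.

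The heat shock factors were modest in level. Hsf1, the main activator of the response, measured 12.3, 17.5 and 19.0 FPKM in the wild-type libraries and 12.7, 19.6 and 17.6 FPKM in the Tet1-deficient ones, a difference of 0.03 (95% interval −0.46 to 0.52). Hsf2, a related factor with roles in brain development, measured 11.6, 11.5 and 11.6 FPKM and 14.6, 11.6 and 11.3 FPKM. Its wild-type values were nearly equal and 1 library, Tet1-deficient replicate 1, was high, so the difference of 0.09 became −0.01 without that library.

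The split between the replicate 1 libraries and the other 4 recurred in most members. Both replicate 1 libraries lay above the other 4 for 12 members and below them for 13, together 65.8% of the 38, close to the 63.5% among all tested genes, where 28.5% were above and 35.0% below. The split was read from these same values, so it carries no test. It went with base composition, with overlap. The 12 genes that were higher, among them Dnajb4, Dnaja1, Chordc1, Dnaja2, Cct8 and Cct4, had a median transcript GC content of 43.0% (35.7% to 52.7%), and the 13 that were lower, among them Hsf1, Stip1, Cryab, Bag1 and Fkbp4, a median of 53.6% (47.4% to 57.8%). Across the 38 genes the Spearman correlation of GC content with the split was −0.82, and across the 11500 tested genes with a value it was −0.75. With the genotype difference the correlation of GC content was weaker, −0.36 across the 38 genes and −0.29 across the 11500. The part of base composition in the genotype differences was not tested. Genes of 1 library share its preparation and are not independent replicates. With the split as a term, an alternative chosen after the data were seen, 0 members passed the threshold in limma and 4 had an unadjusted p under 0.05 (10.5%, against 6.77% of all tested genes). They were Hspa1b, Hspb8, Dnaja1 and Hspa4l, with adjusted p from 0.593 to 0.729. Between the replicate 1 libraries alone, Hspa1b and Hspb8 differed by 0.45 and −0.68, and among the other 4 by 0.52 and −0.29.

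**Figure D4:**
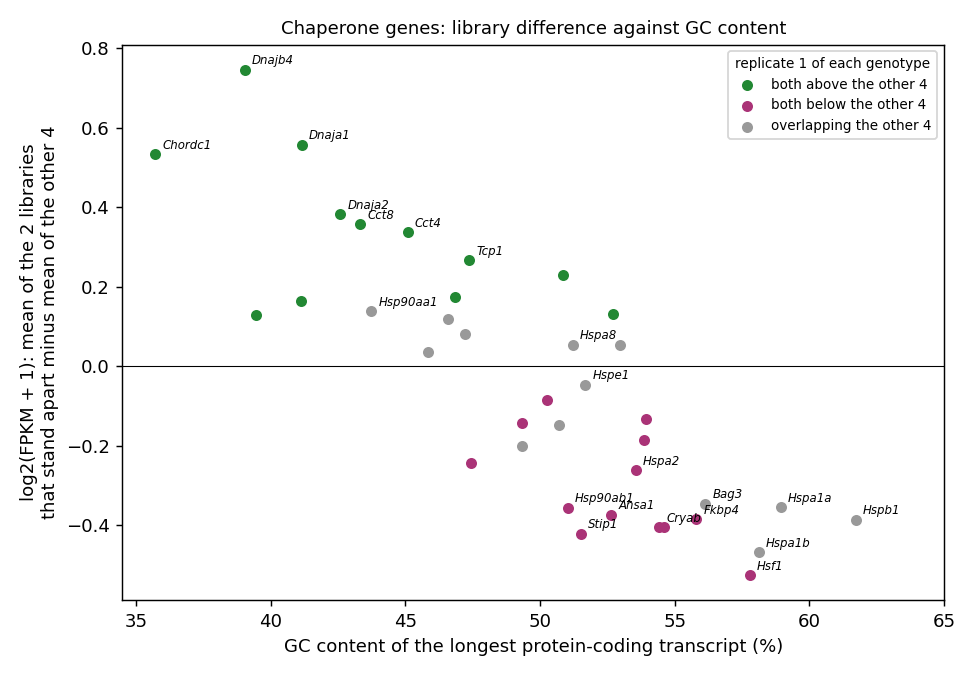
For each of the 38 genes, the mean log2(FPKM + 1) of the 2 replicate 1 libraries minus that of the other 4, against the GC content of the longest protein-coding transcript. Genes with both replicate 1 libraries above the other 4 (green) had a median GC content of 43.0%, and those with both below (purple) 53.6%.

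The 5 members with a 3-unit element had differences from 0.05 to 0.15, all above 0, as were 73.7% of the 38 members and 52.9% of all tested genes, and none past the threshold. Chordc1, with the largest of the 5 differences, was the one that turned to −0.09 without Tet1-deficient replicate 1. Its difference was 0.41 between the replicate 1 libraries and 0.02 among the remaining ones. Each of the 5 genes overlapped between the genotypes.

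In the rest of the chaperone network no gene passed the test either. Of 93 further genes of the Hsp70, Hsp90, J-domain, Bag, small heat shock, prefoldin and Hsf groups, 92 were in the table and 85 were tested. In limma 0 passed the threshold and 3 of 85 had an unadjusted p under 0.05, against 1.36% of all tested genes. The genotypes did not overlap for 3 of the 85, against 4.13% of all tested genes in either direction. All 3 were higher in Tet1-deficient hippocampus, and 1.91% of all tested genes did not overlap in that direction. The difference was above 0 for 59 (69.4%, against 52.9% of all tested genes) and below 0 for 26, with a median of 0.03. Hspa5 and Hsp90b1, the Hsp70 and Hsp90 of the endoplasmic reticulum, were in both sets of 3. The remaining gene without overlap was Pfdn4, and the remaining gene with an unadjusted p under 0.05 in limma is not reported here. Hspa5 measured 170, 165 and 149 FPKM in the wild-type libraries and 221, 244 and 186 FPKM in the Tet1-deficient ones, and Hsp90b1 120, 126 and 117 FPKM and 148, 172 and 135 FPKM. Neither overlapped between the genotypes. Of their cytosolic counterparts, Hspa8 and Hsp90ab1 overlapped and Hsp90aa1 did not, and the difference between the compartments was not tested. The log2 differences were 0.42 and 0.32 with adjusted p of 1.00 in limma. After the 3 genes with an unadjusted p under 0.05, the next by p in limma were Dnajc1, Dnajc12 and Pfdn4. Their differences were 0.25, 0.14 and 0.11.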

How the data were processed

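The authors deposited 1 table of gene-level FPKM values with a column for each of 6 hippocampal libraries. The submitters' processing notes name TopHat2 2.0.9, Cufflinks 2.1.1 and the build mm10. The sources used here do not give the gene annotation, strand setting, treatment of shared reads or filters. Low values did not fall on steps of whole reads, so depth is unknown and no count test was run. Libraries were grouped by the genotype label, and replicate numbers follow the order of the samples.

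Genes averaging 1 FPKM or more (12533) were tested with limma 3.58.1 in R 4.3.3 on log2(FPKM + 1), with an intensity trend, two-sided, Benjamini-Hochberg adjusted over all tested genes at 0.05. The script was tested on simulated data. Named genes were those past the threshold, without overlap or among the 10 smallest p-values of the members, 22 fixed members, and the 6 further chaperone genes with the smallest p-values, of which 1 is not reported here; the other members were then described too. Members and lists were chosen with earlier results of these data known. Positions, transcripts and 50-base words are from GENCODE M21 (GRCm38, the same assembly as mm10) and promoters from RefSeq. Alternatives were a pseudocount of 0.1, no filter, a filter of 5 FPKM, median-of-ratios scaling, quantile normalization, no trend, library weights, each library left out, and, after the data were seen, the library split as a term and the 4 libraries that lie together.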

Additional observations from a re-analysis of the deposited data

How the results depend on the processing

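No chaperone gene passed the threshold under any of the 15 other settings. The smallest adjusted p of a member in limma was 0.26 (Hspb8, library weights). The median of the members ran from 0.028 to 0.069. Of the 38 members 11 kept their direction in every setting in which they were tested (Hspa1a and Hspb8 fall under the 5 FPKM filter), among them Hspa1a, Hspa1b, Hspa9, Hsp90aa1, Hsph1, Hspe1, Hspd1 and Hspb8, and 27 turned in at least 1. Leaving out a replicate 1 library leaves the split within the other genotype only. Stip1 and Ahsa1 turned without wild-type replicate 1 (−0.066 and −0.042). Between the replicate 1 libraries they differed by 0.077 and 0.064, and among the other 4 by 0.073 and 0.086. Bag3, by contrast, differed by −0.45 and 0.014. The part of the split in these turns was not tested. Over all genes 4 passed, against 1 when the filter was 5 FPKM, 59 under library weights, 8 in the model including the split, 12 in the 4 libraries that lie together, and 0 to 6 when 1 library was left out (0 after removing replicate 3 of wild-type or replicate 2 of Tet1-deficient hippocampus, 1 after removing replicate 2 of wild-type or replicate 3 of Tet1-deficient hippocampus).

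Median-of-ratios scaling turned Tcp1 (0.0012) and Cct5 (0.00021), and quantile normalization turned Hspa8 (−0.064) and Hsp90ab1 (−0.067). Library weights turned Hsp90ab1 (−0.035), Fkbp4 (−0.018), Dnajb1 (0.028), Bag3 (0.23), Hspb1 (−0.25), Hsf1 (−0.0044) and Hsf2 (−0.014). In the 4 libraries Dnajb1 (0.032), Bag3 (0.014), Hspb1 (−0.028), Tcp1 (0.00019), Cct2 (0.019) and Hsf2 (−0.012) turned. The cause was not tested.

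Leaving out 1 library gave log2 differences of −0.042 to 0.21 for Ahsa1, −0.095 to 0.18 for Bag1, −0.10 to 0.083 for Bag2, −0.56 to 0.30 for Bag3, −0.075 to 0.025 for Cct2, −0.10 to 0.016 for Cct3, −0.091 to 0.13 for Cct4, −0.044 to 0.013 for Cct5, −0.071 to 0.017 for Cct7, −0.031 to 0.21 for Cct8, −0.094 to 0.28 for Chordc1, −0.28 to 0.069 for Cryab and −0.037 to 0.33 for Dnaja1. For the other members that turned it gave −0.088 to 0.17 for Dnaja2, −0.088 to 0.039 for Dnajb1, −0.068 to 0.43 for Dnajb4, −0.027 to 0.15 for Dnajb5, −0.11 to 0.15 for Fkbp4, −0.15 to 0.20 for Hsf1, −0.015 to 0.15 for Hsf2, −0.11 to 0.13 for Hsp90ab1, −0.039 to 0.12 for Hspa12a, −0.0015 to 0.11 for Hspa4, −0.26 to 0.31 for Hspb1, −0.066 to 0.21 for Stip1 and −0.098 to 0.080 for Tcp1.

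No paired analysis was possible because the replicate numbers only name the libraries in their order. The 3 libraries per genotype and the unknown depth limit the precision, and the errors are widest for Bag3 (SE 0.49), Hspb1 (SE 0.32) and Dnajb4.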
